A study of Mus musculus with 5 samples.

Results

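The genes described here are 30 genes of glycolysis and of the cellular response to low oxygen, out of 46983 genes counted. They were listed by name, with earlier results of these data known, by a rule that sets no threshold on a measured value. Their symbols were joined to the counts by Ensembl identifier. They fall into 13 glycolytic enzymes, 5 transporters and regulators of glycolysis, and 12 other genes known as targets of the hypoxia response. All 30 were found and all 30 were among the 14580 genes with enough counts to be tested.

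RNA was sequenced from 5 libraries, made from C57/BL6 mice bearing orthotopic mammary tumours of the EO771 line, a mouse breast carcinoma line. In the Treg-ablated group (2 libraries) regulatory T (Treg) cells had been removed with 2 doses of diphtheria toxin at 50 µg/kg, and cells were sorted 4 days later. The control group (3 libraries) came from tumours that received no treatment. The sort gate, CD45+ CD11B+ Ly6G- F4/80+, was meant to collect tumour-associated macrophages. As the controls received no toxin, an effect of the toxin and one of Treg loss cannot be told apart. The labels name no allele that made Treg cells sensitive to the toxin. They also do not say that each library is a different animal, so a p-value here refers to the variation among these 5 libraries, and this may be technical. The comparison of the groups belongs to a study of how macrophages change when Treg cells are lost.

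When oxygen is short, prolyl hydroxylases no longer mark the α subunits of the hypoxia-inducible factors (HIF) for destruction, and the factors bind short DNA motifs near their target genes. Their targets include most enzymes of glycolysis, which turns glucose into pyruvate and lactate without oxygen, and genes for mitophagy, pH control, collagen modification, blood vessel growth and feedback on the response itself. Activated macrophages also use HIF and glycolysis when oxygen is present, so these genes are read in tumour macrophages both as marks of hypoxia and of activation.

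Library totals ran from 13122668 to 20156835 counts. Foxp3, the gene that defines Treg cells, had 1 and 5 counts in Treg-ablated libraries and 3, 9 and 3 in controls, too few to check the ablation (ratio 0.686, exact 95% interval 0.218 to 1.87, counting error only). The macrophage markers of the gate were low: Adgre1, which encodes F4/80, had 5.93 and 5.73 CPM (counts scaled to 1e+06 per library) in Treg-ablated libraries and 9.74, 9.87 and 9.54 CPM in controls. The summed level of 18 fibroblast markers, mostly Fn1 and Col3a1, ran from 22140 to 28600 CPM per library. That of 18 macrophage markers ran from 339.1 to 634.1 CPM. For this reason the cells are referred to as labelled macrophages, and no change below is assigned to a cell type. In such bulk samples, fewer cells of a type and less RNA per cell cannot be told apart.

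Across the 30 genes, 10 were higher and 3 were lower in the Treg-ablated libraries at an adjusted p under 0.05 (edgeR quasi-likelihood test, Benjamini-Hochberg over all genes tested). Over all 14580 genes the same test called 25.8%, with 13.5% higher and 12.3% lower. Among the 12 other hypoxia targets 7 were higher and 0 were lower by edgeR, and also 0 were lower by DESeq2 and limma-voom. At an unadjusted p under 0.05, 1 target (P4ha2) was lower. The median log2 fold change of the targets was 0.27. Among the 13 glycolytic enzymes 2 were higher and 2 lower, with a median of -0.10, and among the 5 transporters and regulators 1 was higher and 1 lower, with a median of -0.07. The median of all genes tested was -0.01. The difference between the role groups itself was not tested.

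Overlap between the groups was counted as well. In 8 of the 12 targets both Treg-ablated libraries lay above all controls, in 1 they lay below, and in 3 the groups overlapped. In 3 of the 13 enzymes they lay above, in 7 below, and 3 overlapped. Of all genes tested, 26.9% had both Treg-ablated libraries above and 25.6% had them below all controls, 52.5% in all. The mean log2 ratio of a library to the control mean, taken over the 12 targets, was 0.31 and 0.20 in the Treg-ablated libraries, and 0.00, -0.00 and -0.01 in the controls. Over the 13 enzymes it was 0.03 and -0.06 in the Treg-ablated libraries and -0.06, 0.02 and 0.03 in the controls. The libraries were mixed by this mean, but less so by other summaries. The median log2 ratio of the enzymes was -0.07 and -0.19 against -0.07, 0.01 and 0.05. Their summed level, mostly Pkm and Ldha, was 6728 and 6186 CPM, below the 6766, 7125 and 7292 CPM of the controls.

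**Figure D1:**
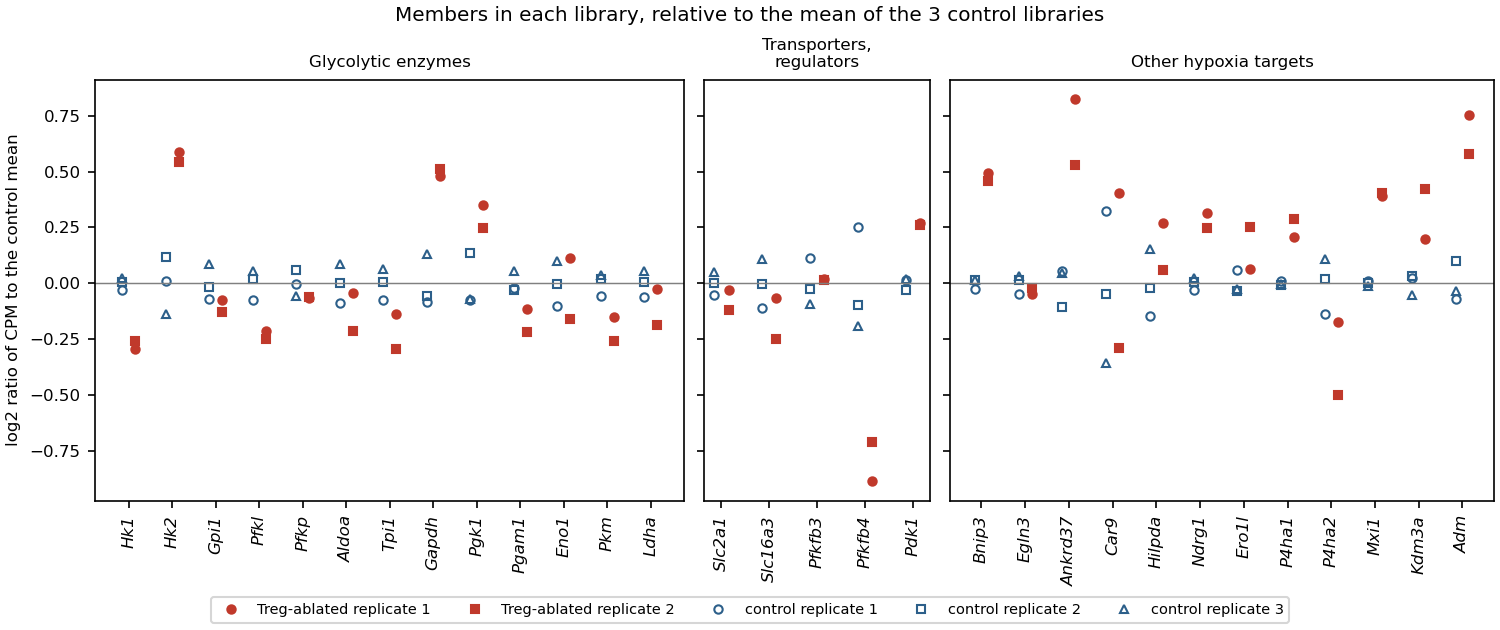
Each point is 1 library, and the vertical axis gives the log2 ratio of its CPM to the mean of the 3 control libraries, for the 30 genes in 3 panels by role. Hk2 and Gapdh stand above the line among the enzymes, Pfkfb4 lies furthest below it, and 8 of the 12 other hypoxia targets have both Treg-ablated libraries above all controls.

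The genes differed widely in level. Compared per kilobase of exon, so that long and short genes can be set side by side, the highest control level was that of Pkm, which encodes pyruvate kinase, at 986.5 ± 33.6 CPM per kilobase (SD, n = 3). Ldha, which encodes the lactate dehydrogenase subunit that makes lactate from pyruvate, followed at 488 ± 20.2, then Tpi1 (triosephosphate isomerase) at 299 ± 14.6 and Aldoa (aldolase) at 211 ± 12.7 CPM per kilobase. The highest of the other hypoxia targets was Egln3, a prolyl hydroxylase, at 86.7 ± 2.63 CPM per kilobase. The lowest of the 30 was Car9, the cell-surface carbonic anhydrase that is often used as a mark of hypoxic tumour cells, at 1.28 CPM per kilobase in controls, from 32 to 62 counts per library.

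**Figure D2:**
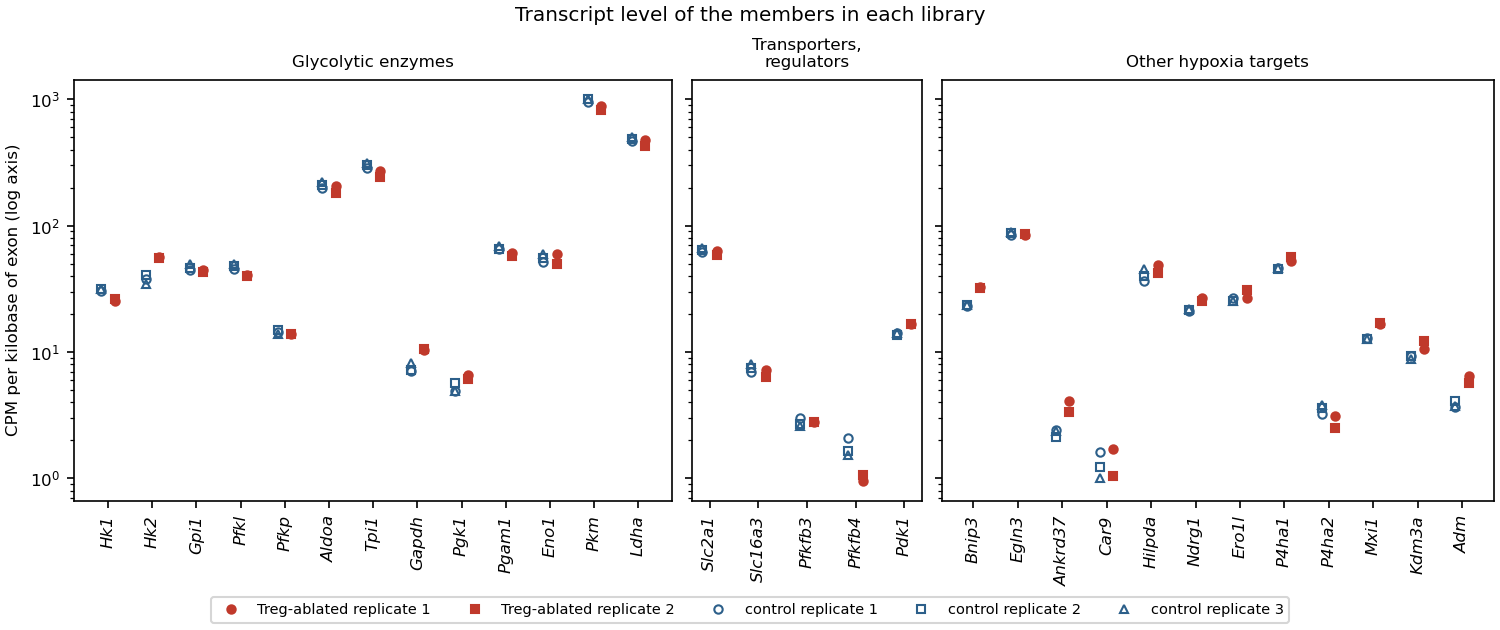
The level of each of the 30 genes in each library, in CPM per kilobase of exon on a log axis, with 1 point per library and 1 panel per role. Pkm, Ldha, Tpi1 and Aldoa form the top of the scale and Car9 and Pfkfb4 the bottom, and for most genes the distance between groups is small beside the distance between genes.

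Hexokinase, the enzyme that traps glucose in the cell by phosphorylation, changed in opposite directions in its 2 genes listed here. Hk2, the form that is induced by HIF, had 338.7 and 328.5 CPM in the Treg-ablated libraries and 226.8, 244.3 and 204.7 CPM in the controls. Both Treg-ablated libraries were above all controls. Hk2 (chr6:82725025-82774454, minus strand, GRCm38) was 1.48-fold higher, with means of 333.6 ± 7.19 (SD, n = 2) and 225.3 ± 19.8 CPM (SD, n = 3), a log2 fold change of 0.57 ± 0.079 (SE) and an adjusted p of 0.00116 (edgeR). Hk1 (chr10:62268855-62379908, minus strand), the hexokinase found in most tissues, had 217.3 and 222.3 CPM in the Treg-ablated libraries and 260.9, 267.5 and 270.2 CPM in the controls. The Treg-ablated libraries were below all controls, by 0.28 ± 0.063 on the log2 scale (edgeR adjusted p = 0.0106). The call of Hk2 held under all 17 alternative settings. That of Hk1 ended with an offset on GC content (log2 fold change -0.13, adjusted p = 0.143) and without control replicate 2 (adjusted p = 0.0634). The Hk1 call also ended with the replicate number as a block.

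Within a library, the share of Hk2 in the summed level of both hexokinases, per kilobase of exon, was 69.0% and 67.9% in the Treg-ablated libraries. It was 55.4%, 56.6% and 52.0% in the controls. A share within a library does not depend on the scaling between libraries. It can still depend on GC content, which was 51.9% for Hk2 and 56.4% for Hk1, and this was not tested. Hk3, the hexokinase of blood cells, was low at 4.84 to 5.96 CPM and was not called (-0.04 ± 0.157 on the log2 scale, edgeR adjusted p = 0.888).

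The promoters of the 2 hexokinase genes are printed because their genes moved apart. Each runs over the 250 bases before a RefSeq transcription start, 5′ to 3′ on the strand of the gene, from the RefSeq annotation of GRCm38.p6. Capitals mark the HIF core motif ACGTG and its variant GCGTG on either strand (CACGT and CACGC on the opposite strand). Hk2 has its interval at chr6:82774455-82774704, and ACGTG at positions -226 and -52 from the start. Hk1 has 2 starts in the table, and the interval of the second, chr10:62340422-62340671, holds no ACGTG but GCGTG at -196, -15 and -12, where the last 2 overlap on opposite strands. The first Hk1 start held neither motif.
Hk2: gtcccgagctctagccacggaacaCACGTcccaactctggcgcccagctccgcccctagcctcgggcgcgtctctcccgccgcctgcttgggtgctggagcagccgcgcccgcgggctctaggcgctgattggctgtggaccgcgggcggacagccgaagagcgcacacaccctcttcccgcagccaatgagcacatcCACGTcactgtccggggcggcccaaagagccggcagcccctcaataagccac
Hk1: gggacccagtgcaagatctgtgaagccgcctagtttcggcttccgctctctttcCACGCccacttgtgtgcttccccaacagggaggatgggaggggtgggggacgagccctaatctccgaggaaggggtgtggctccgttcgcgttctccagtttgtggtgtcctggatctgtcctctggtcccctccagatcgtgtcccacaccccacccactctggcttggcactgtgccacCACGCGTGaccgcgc

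Phosphofructokinase commits sugar to glycolysis. Pfkl (chr10:77986947-78010083, minus strand), the liver form, had 179.8 and 175.4 CPM in the Treg-ablated libraries and 198.5, 211.3 and 216.7 CPM in the controls. The Treg-ablated libraries lay below all controls, and the gene fell by 0.23 ± 0.067 on the log2 scale (edgeR adjusted p = 0.028). This call was among the least stable. It ended with the GC offset (-0.09, adjusted p = 0.32), with the replicate number as a block, and without either Treg-ablated library. Without control replicate 2 or 3 the Pfkl call ended too, at an adjusted p of 0.116 and 0.0724. Pfkp, the platelet form, had 129.7 and 130.1 CPM against 135.3, 141.2 and 130.6 CPM. Its Treg-ablated libraries were below all controls by a narrow gap, and it was not called (-0.06 ± 0.066, adjusted p = 0.511 by edgeR). The muscle form Pfkm, outside the 30 genes, had 60.7 and 58.5 CPM against 77.7, 76.1 and 76.8 CPM, and fell by 0.37 ± 0.067 on the log2 scale (edgeR adjusted p = 0.00387).

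The other 9 enzymes, apart from Hk1, Hk2, Pfkl and Gapdh, did not pass the test. Aldoa, which splits the 6-carbon sugar, had 598.7 and 531.9 CPM against 580.2, 616.5 and 654.5 CPM, and the groups overlapped. Gpi1, the isomerase that follows hexokinase, had 288.4 and 277.7 CPM against 289.0, 299.9 and 322.8 CPM, with the Treg-ablated libraries below all controls. Neither was called, at log2 fold changes of -0.13 ± 0.080 and -0.10 ± 0.070. Tpi1, which interconverts the 3-carbon sugars, had 748.3 and 671.2 CPM against 781.3, 827.2 and 861.3 CPM. The Treg-ablated libraries were below all controls, but the difference did not pass the test (-0.21 ± 0.077, edgeR adjusted p = 0.0652). Pkm, which makes pyruvate and ATP, had 2307 and 2142 CPM against 2465, 2599 and 2628 CPM (-0.20 ± 0.076, edgeR adjusted p = 0.0694). Both lay near the threshold: Tpi1 and Pkm each passed it under 4 of the 17 alternatives, in the lower direction. Without Treg-ablated replicate 1 Tpi1 had an adjusted p of 0.0452.

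Ldha had 1428 and 1279 CPM in the Treg-ablated libraries and 1393, 1460 and 1512 CPM in the controls. The groups overlapped, and the log2 fold change was -0.10 ± 0.078 (edgeR adjusted p = 0.35). Its partner subunit gene Ldhb, outside the 30 genes, was too low to be tested, with at most 0.3005 CPM in any library. Eno1 (enolase) had 322.0 and 266.1 CPM against 277.2, 296.6 and 319.2 CPM, and overlapped likewise (-0.02 ± 0.091). Pgam1 (phosphoglycerate mutase) had 112.0 and 104.5 CPM against 119.5, 118.8 and 126.2 CPM, with the Treg-ablated libraries below all controls and no call (-0.17 ± 0.068, edgeR adjusted p = 0.0987).

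Gapdh and Pgk1 encode the enzymes that oxidise the 3-carbon sugar and then draw ATP from it, and both had the Treg-ablated libraries above all controls. Gapdh (chr6:125161715-125166467, minus strand), often used as a constant reference gene, had 43.1 and 44.0 CPM in the Treg-ablated libraries and 29.2, 29.7 and 33.8 CPM in the controls. The groups did not overlap, and it was 1.41-fold higher (log2 fold change 0.50 ± 0.085, edgeR adjusted p = 0.00288). Pgk1 (phosphoglycerate kinase) had 14.8 and 13.8 CPM against 11.0, 12.8 and 11.1 CPM, also without overlap, and was not called (0.29 ± 0.114, edgeR adjusted p = 0.0797). Per kilobase, Gapdh stood at 7.47 and Pgk1 at 5.18 CPM in controls, against 299 for Tpi1 and 986.5 for Pkm in the same chain.

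Both values rest on a part of the reads. The recorded counting command sets no option for reads that match several places, and 8 of the 13 enzymes, none of the 5 transporters and regulators, and 1 of the 12 other targets have annotated near-identical copies elsewhere in the genome (at least 125 bases at 95% identity or more). Gapdh has 139 such copies, and they took 61.1% of the counts assigned to Gapdh and its copies together. The 4 copies of Pgk1 took 77.3%. When the counts of Gapdh were summed with those of its copies, the libraries held 101.4 and 93.5 CPM against 81.9, 85.6 and 95.4 CPM. The groups then overlapped and the call ended (log2 fold change 0.15 ± 0.082, edgeR adjusted p = 0.191), although with the GC offset on top it passed again (0.25, adjusted p = 0.037). The summed counts of Pgk1 and its copies turned to the lower side without passing the test, with 47.5 and 54.6 CPM against 56.6, 61.8 and 57.8 CPM (-0.21 ± 0.081, adjusted p = 0.0819). The direction of Pgk1 and the size and call of Gapdh therefore depended on how the copies were counted, while Gapdh stayed on the higher side under all 17 alternatives. Whether the copies are transcribed or hold reads from the parent genes was not tested. Reads that were assigned to no gene are in none of these sums, so the sums may not be full counts either.

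Other enzymes moved less when summed. Of Pgam1 counts 62.6% lay on 1 copy, and the sum passed the test on the lower side (-0.24 ± 0.076, edgeR adjusted p = 0.0429). That call was absent with the GC offset (adjusted p = 0.17). Eno1 had 60.0% of its counts on 3 copies and Gpi1 43.1% on 1 copy, and neither sum was called, at -0.15 for both. For Pkm (15.9%), Tpi1 (5.5%) and Ldha (0.5%) the copies held a smaller part and the log2 fold change moved by at most 0.01. Hk1, Hk2, Pfkl, Pfkp and Aldoa had no such copy.

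**Figure D3:**
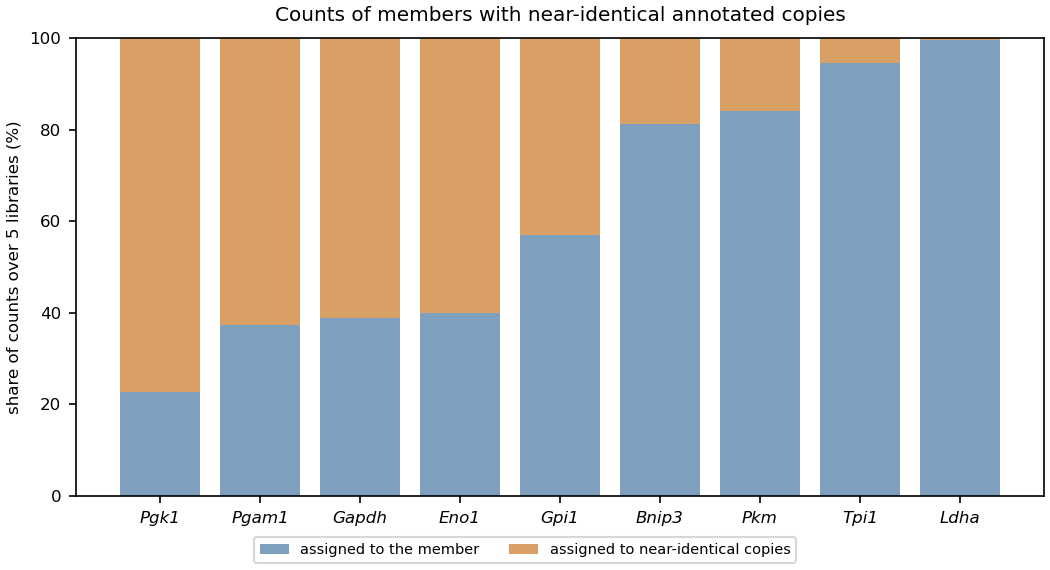
For each of the 9 genes with near-identical annotated copies, the bar splits the counts over all 5 libraries into those assigned to the gene and those assigned to its copies, in percent. The copies held 77.3% of the counts for Pgk1, 62.6% for Pgam1, 61.1% for Gapdh, 60.0% for Eno1 and 18.9% for Bnip3.

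The transporter genes for glucose entry and lactate exit did not pass the test. Slc2a1, the glucose transporter GLUT1, had 220.6 and 206.9 CPM against 216.9, 225.1 and 233.4 CPM (log2 fold change -0.07 ± 0.067, edgeR adjusted p = 0.445). Slc16a3, the lactate exporter MCT4, had 38.0 and 33.5 CPM against 36.9, 39.7 and 42.9 CPM (-0.15 ± 0.092, adjusted p = 0.245). The groups overlapped in both. The second glucose transporter gene Slc2a3, outside the 30 genes, was lower in level at 11.2 to 14.1 CPM and was not called (0.18 ± 0.11, edgeR adjusted p = 0.26).

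The regulators of glycolytic flux differed from each other. Pfkfb3 and Pfkfb4 encode bifunctional enzymes that set the level of fructose 2,6-bisphosphate, the activator of phosphofructokinase. Pfkfb4 (chr9:108991778-109032228, plus strand) had 4.60 and 5.21 CPM in the Treg-ablated libraries and 10.1, 7.96 and 7.46 CPM in the controls, from 69 to 159 counts. Both Treg-ablated libraries lay below all controls, and the gene fell by 0.80 ± 0.171 on the log2 scale (edgeR adjusted p = 0.00823), the largest change among the 30 genes. The call held under all 17 alternatives, with log2 fold changes from -0.88 to -0.66. Pfkfb3 had 21.06 and 21.05 CPM against 22.5, 20.4 and 19.5 CPM and overlapped between groups (0.02 ± 0.097). Per kilobase, Pfkfb3 made up 74.7% and 72.3% of the pair in the Treg-ablated libraries, and 58.9%, 62.3% and 62.8% in the controls.

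Pdk1 (chr2:71873224-71903858, plus strand) encodes a kinase that inactivates pyruvate dehydrogenase and so limits the entry of pyruvate into the tricarboxylic acid cycle. It had 130.2 and 129.4 CPM in the Treg-ablated libraries and 109.2, 105.8 and 109.6 CPM in the controls. The groups did not overlap, and Pdk1 was 1.2-fold higher (log2 fold change 0.26 ± 0.063, edgeR adjusted p = 0.0132). The call ended without control replicate 2 (adjusted p = 0.0818) and with the replicate number as a block. Its relatives Pdk2 and Pdk3 lie outside the 30 genes. Pdk2 fell from 4.16 ± 0.529 to 2.45 ± 0.370 CPM (-0.75 ± 0.204 on the log2 scale, edgeR adjusted p = 0.0225), a call that ended under 8 of the 17 alternatives, the GC offset among them. Pdk3 had a log2 fold change of -0.00 (adjusted p = 0.978). The share of Pdk1 among Pdk1, Pdk2 and Pdk3, per kilobase, was 45.8% and 46.3% against 41.5%, 40.7% and 40.4%.

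**Figure D4:**
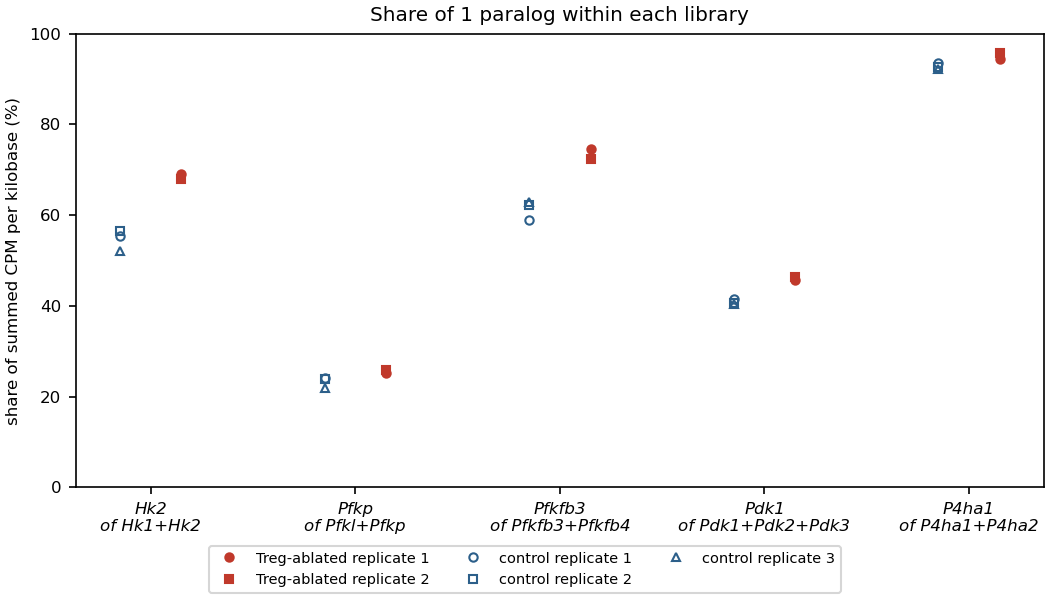
Share of 1 gene in the summed CPM per kilobase of its listed relatives, in percent, with 1 point per library, for 5 families of enzymes. The Treg-ablated libraries lie above all controls in each family, by the widest gap for Hk2 (67.9% and 69.0% against 52.0% to 56.6%) and Pfkfb3, and by a narrow one for Pfkp and P4ha1. In each family the gene whose share is drawn has the lowest GC content of its relatives. Genes of low GC content were more often higher in the Treg-ablated libraries, and the part of this trend in the shares was not tested.

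Among the other hypoxia targets, the mitophagy receptor gene Bnip3 (chr7:138890836-138909519, minus strand) had 74.6 and 72.7 CPM in the Treg-ablated libraries and 52.0, 53.4 and 53.4 CPM in the controls. The groups were far apart beside their spread, with means of 73.7 ± 1.36 and 52.9 ± 0.815 CPM. Bnip3 was 1.39-fold higher (log2 fold change 0.48 ± 0.066, edgeR adjusted p = 0.00116), and the call held under all 17 alternatives. Of the counts of Bnip3, 18.9% lay on 3 near-identical copies, and the sum gave 0.47 ± 0.065. Its relative Bnip3l, outside the 30 genes, rose by 0.31 ± 0.064 (edgeR adjusted p = 0.0065), a call that ended with the GC offset (0.18, adjusted p = 0.0626).

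Adm (chr7:110627661-110629820, plus strand) encodes adrenomedullin, a peptide that widens blood vessels. It had 10.5 and 9.28 CPM in the Treg-ablated libraries and 5.91, 6.66 and 6.06 CPM in the controls. Both Treg-ablated libraries were above all controls, and Adm was 1.59-fold higher (log2 fold change 0.67 ± 0.130, edgeR adjusted p = 0.00527), a call that held under all 17 alternatives. Ankrd37 (chr8:45996902-45999867, minus strand), a small ankyrin repeat protein gene and a strong HIF target, had 5.74 and 4.68 CPM against 3.36, 3.005 and 3.34 CPM. It had the largest increase among the 30 genes, 1.62-fold (log2 fold change 0.70 ± 0.173, edgeR adjusted p = 0.0153), on 48 to 91 counts per library. The call of Ankrd37 ended with DESeq2 (adjusted p = 0.0926), without Treg-ablated replicate 1 (0.117) and without control replicate 2 (0.0805). Other genes overlap 28.9% of its exon bases, and the counting used no strand, so reads from the shared bases cannot be placed on 1 gene.

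Mxi1 and Kdm3a, which act on transcription, rose. Mxi1 (chr19:53310506-53375810, plus strand), an antagonist of MYC, had 93.9 and 94.9 CPM in the Treg-ablated libraries and 72.2, 71.8 and 71.1 CPM in the controls. The spread within each group was small, with means of 94.4 ± 0.676 and 71.7 ± 0.558 CPM, and Mxi1 was 1.32-fold higher (log2 fold change 0.40 ± 0.064, edgeR adjusted p = 0.00225). The call held under all 17 alternatives. Kdm3a (chr6:71588972-71632990, minus strand), a histone H3 lysine demethylase, had 86.1 and 100.7 CPM against 76.3, 76.7 and 72.4 CPM. The groups did not overlap, and it was 1.24-fold higher (0.31 ± 0.080, edgeR adjusted p = 0.0175). This call ended with the GC offset (adjusted p = 0.0624) and without control replicate 2 (0.0732). The Kdm3a call also ended without Treg-ablated replicate 2 and with the replicate number as a block. Egln3, the prolyl hydroxylase that closes a feedback loop on HIF, was not called, with 222.9 and 227.0 CPM against 222.8, 233.3 and 236.1 CPM and overlapping groups (-0.04 ± 0.064, edgeR adjusted p = 0.707).

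Genes of protein folding and collagen modification were divided. P4ha1 (chr10:59323296-59373304, plus strand), a catalytic subunit of collagen prolyl 4-hydroxylase, had 218.0 and 230.7 CPM in the Treg-ablated libraries and 190.0, 188.0 and 188.6 CPM in the controls. It was 1.19-fold higher, without overlap (log2 fold change 0.25 ± 0.063, edgeR adjusted p = 0.0167). The P4ha1 call ended with the GC offset (adjusted p = 0.0748) and without control replicate 2 (0.0856). It also ended without Treg-ablated replicate 2 and with the replicate number as a block. P4ha2, the second catalytic subunit, lay on the other side with 19.6 and 15.6 CPM against 20.1, 22.4 and 23.8 CPM. Its Treg-ablated libraries were below all controls, and it was not called (-0.32 ± 0.120, edgeR adjusted p = 0.0717), although it passed without Treg-ablated replicate 1 (adjusted p = 0.0216). P4ha1 made up most of the pair in every library, with 92.3% to 95.7% per kilobase. Ero1l, the oxidase that drives disulfide bonds in the endoplasmic reticulum, had 119.1 and 135.7 CPM against 118.8, 111.4 and 112.0 CPM. Its groups were separated by a narrow gap, and it was not called (0.16 ± 0.075, edgeR adjusted p = 0.143).

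Of the remaining targets, Ndrg1 (chr15:66929321-66969640, minus strand), a stress-induced gene of differentiation, had 175.6 and 167.8 CPM in the Treg-ablated libraries and 138.3, 141.8 and 143.6 CPM in the controls. It was 1.22-fold higher without overlap (log2 fold change 0.28 ± 0.063, edgeR adjusted p = 0.0103). Ndrg1 no longer passed when Treg-ablated replicate 1 or control replicate 2 (adjusted p = 0.0602) was left out. With the replicate number as a block it did not pass either. Hilpda, which promotes lipid droplets, ranged from 40.5 to 54.1 CPM and Car9 from 2.30 to 3.91 CPM. Both overlapped between groups and were not called, at log2 fold changes of 0.17 ± 0.099 and 0.12 ± 0.261.

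**Figure D5:**
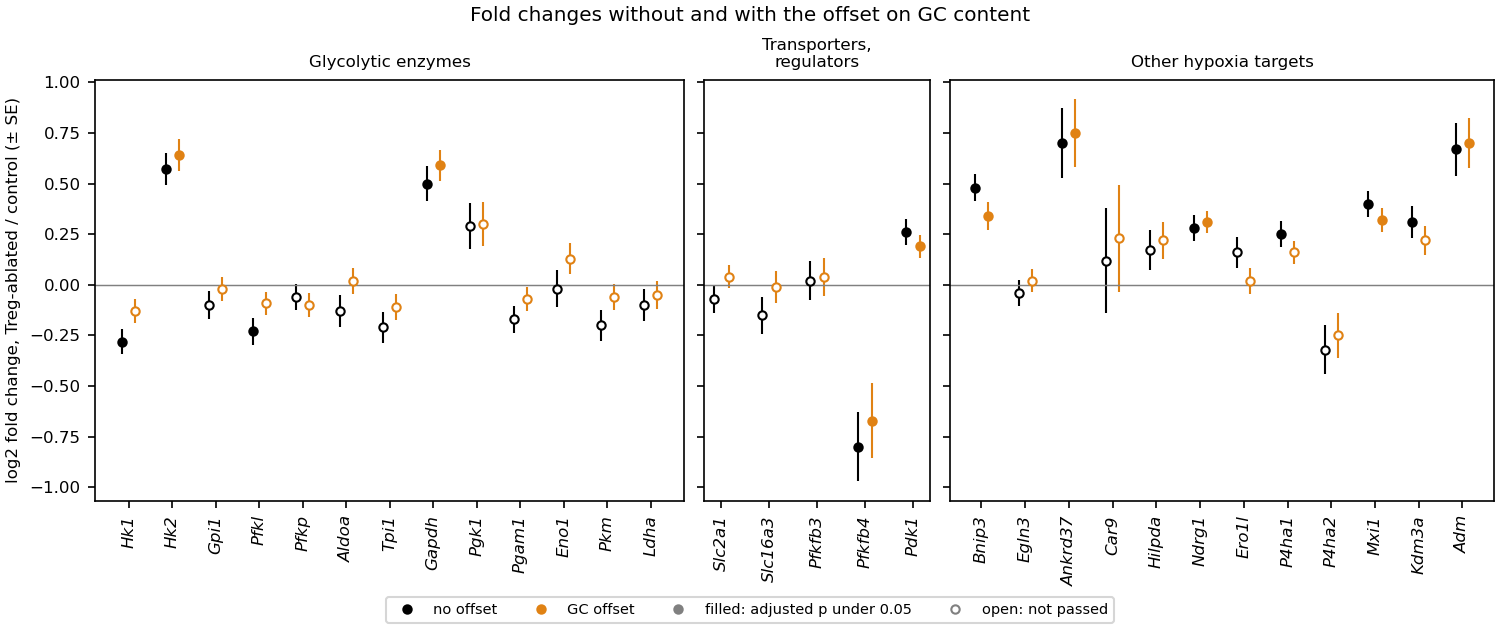
The log2 fold change of each of the 30 genes, Treg-ablated over control, with its SE, without (black) and with (orange) an offset on GC content; filled points passed an adjusted p of 0.05. With the offset 5 of the 12 other hypoxia targets stay on the higher side of the threshold, Hk1 and Pfkl no longer pass, and Hk2, Gapdh, Pfkfb4 and Pdk1 still do. Of all 14580 genes tested, 1530 are higher and 1298 lower with the offset, against 1971 and 1787 without it.

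GC content moved with the fold changes of all genes, and the role groups differed in it. Of genes under 45% GC, 24.1% were higher and 3.3% lower in the Treg-ablated libraries. Of genes at 55% GC or above, 4.8% were higher and 23.0% lower. Of the enzymes 5 of 13 lay in that top range, and 0 of the 12 other targets did. The median GC content was 52.8% for the enzymes and 50.6% for the other targets. With an offset that removes the trend within each library, the median log2 fold change was -0.05 for the enzymes, 0.04 for the transporters and regulators and 0.23 for the other targets. The offset left 2 enzymes higher, ended the lower calls of Hk1 and Pfkl, and left 5 of the 12 targets higher. Calls over all 14580 genes tested fell as well, from 1971 to 1530 higher and from 1787 to 1298 lower. The 5 were Bnip3 (log2 fold change 0.34), Ankrd37 (0.75), Ndrg1 (0.31), Mxi1 (0.32) and Adm (0.70).

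The HIF core motif was looked up in the 250 bases before the RefSeq starts of 29 of the 30 genes, with any start of a gene counting. ACGTG, on either strand, was found for 9 of 11 other hypoxia targets (81.8%), 6 of 13 enzymes (46.2%) and 3 of 5 transporters and regulators (60.0%). It was found for 18.5% of all 27025 genes in the promoter table and for 24.9% of the tested genes matched there. The variant GCGTG was found for 72.7% of the targets, 53.8% of the enzymes, 80.0% of the transporters and regulators and 49.5% of the tested genes. A match is a description of the letters and not a bound site. The targets with ACGTG were Bnip3, Ankrd37, P4ha1 and Mxi1, which rose, and Egln3, Car9, Hilpda, Ero1l and P4ha2, which were not called. Kdm3a and Adm, which rose, had only GCGTG. Of the 6 enzymes with ACGTG only Hk2 was called, and Aldoa, Pgk1, Pgam1, Pkm and Ldha were not. A link between the motif and the change was not tested. The promoters of 3 targets that rose are printed to show how the motif lies. Bnip3 (chr7:138909507-138909756, minus strand) has the palindrome CACGTG, which counts once on each strand at -108 and -107, and GCGTG at -117, -99 and -35. Ankrd37 (chr8:45999851-46000100, minus strand) has ACGTG at -241 and -6 and GCGTG at -155 and -152. Adm (chr7:110627407-110627656, plus strand) has no ACGTG in this window but GCGTG at -90 and -54.
Bnip3: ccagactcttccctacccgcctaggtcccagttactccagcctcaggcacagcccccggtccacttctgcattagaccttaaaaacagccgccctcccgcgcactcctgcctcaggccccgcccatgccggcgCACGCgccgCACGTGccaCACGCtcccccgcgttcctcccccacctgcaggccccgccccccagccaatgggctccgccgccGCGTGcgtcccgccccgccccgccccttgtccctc
Ankrd37: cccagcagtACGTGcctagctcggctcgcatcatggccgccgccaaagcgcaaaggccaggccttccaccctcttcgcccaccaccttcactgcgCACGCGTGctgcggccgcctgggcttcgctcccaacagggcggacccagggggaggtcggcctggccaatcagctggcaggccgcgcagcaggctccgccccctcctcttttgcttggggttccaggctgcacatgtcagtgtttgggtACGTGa
Adm: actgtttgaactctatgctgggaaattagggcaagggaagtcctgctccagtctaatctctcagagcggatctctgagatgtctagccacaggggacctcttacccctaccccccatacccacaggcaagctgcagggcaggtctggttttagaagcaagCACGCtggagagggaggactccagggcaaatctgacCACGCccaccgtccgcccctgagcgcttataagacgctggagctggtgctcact

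The genes that sense oxygen and form HIF were divided. Of 17 tested genes in a list of oxygen sensors and HIF subunits, 5 were higher (29.4%) and 3 lower (17.6%). The shares over all genes tested were 13.5% and 12.3%. The median log2 fold change of the list was 0.14. Hif1a, the main α subunit in macrophages, had 298.8 and 337.4 CPM against 295.9, 267.8 and 275.5 CPM, and was not called (0.19 ± 0.076, edgeR adjusted p = 0.0974). With the GC offset its log2 fold change was 0.04. Epas1, which encodes HIF-2α, was far lower with 3.66 and 2.94 CPM against 2.42, 2.10 and 1.74 CPM, and was called higher at the edge of the threshold (0.66 ± 0.221, edgeR adjusted p = 0.0488), a call that ended under 7 of the 17 alternatives. Hif1an, the asparagine hydroxylase that blocks HIF activity, had 55.6 and 56.1 CPM against 71.6, 73.9 and 72.5 CPM. It fell by 0.38 ± 0.067 on the log2 scale (edgeR adjusted p = 0.00333) and Cited2, a competitor of HIF for its coactivator, rose by 0.46 ± 0.070 (adjusted p = 0.00182). Both calls held under all 17 alternatives. Eloc, part of the complex that marks HIF for destruction, and Hsp90aa1, a chaperone of HIF, rose by 0.39 and 0.36 on the log2 scale, and both calls ended with the GC offset. Egln1, the main prolyl hydroxylase, was not called (0.19 ± 0.070, edgeR adjusted p = 0.0711) but passed with the GC offset (0.33, adjusted p = 0.00946).

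Of all genes tested 13.5% were higher and 12.3% lower. In a longer list of 36 further tested hypoxia targets 8 were higher (22.2%) and 7 lower (19.4%), with a median of 0.06. This list was more evenly divided than the 12 other hypoxia targets above, with 7 higher, 0 lower and a median of 0.27. Among the further targets with the smallest p, Angptl4, Vegfa and Wsb1 rose. Angptl4, which encodes a lipase inhibitor, had 26.1 and 22.9 CPM against 12.6, 14.6 and 12.8 CPM (log2 fold change 0.88 ± 0.108, edgeR adjusted p = 0.000639). Vegfa, the main growth factor of blood vessels, had 72.8 and 70.7 CPM against 48.3, 46.5 and 49.5 CPM (0.58 ± 0.069, adjusted p = 0.000551). In both the Treg-ablated libraries lay above all controls. Wsb1, a ubiquitin ligase subunit, rose by 0.48 ± 0.066. These 3 calls held under all 17 alternatives. Ddit4, an inhibitor of mTOR signalling, was not called (-0.22 ± 0.080, edgeR adjusted p = 0.0722), and Gys1, the glycogen synthase gene, fell by 0.31 ± 0.070 (adjusted p = 0.0107), a call that ended with the GC offset.

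Pathways next to glycolysis were read from the same fit. Over all genes tested, 13.5% were higher and 12.3% lower. The shares higher and lower were 10.7% and 17.9% for other glycolysis and pyruvate genes, and 0.0% and 50.0% for the pentose phosphate pathway. They were 17.6% and 23.5% for the tricarboxylic acid cycle and 2.9% and 8.6% for the respiratory chain. For gluconeogenesis and glycogen they were 8.3% and 33.3%. Among 28 other tested glycolysis and pyruvate genes 3 were higher and 5 lower, and the gene of pyruvate carboxylase, Pcx, fell from 10.6 ± 1.19 to 5.88 ± 0.745 CPM (-0.86 ± 0.149 on the log2 scale, edgeR adjusted p = 0.00304). Tigar, which encodes a phosphatase that lowers fructose 2,6-bisphosphate, fell by 0.34 and Dld, a subunit of pyruvate dehydrogenase and its relatives, rose by 0.41. Pdk4 was low, at 0.601 to 1.36 CPM, and was not called. In the pentose phosphate pathway, which branches off after hexokinase and makes NADPH, 4 of 8 genes were lower. These were G6pdx (-0.38 ± 0.069), Pgd (-0.35 ± 0.069), Tkt (-0.25 ± 0.068) and H6pd (-0.48 ± 0.075). The calls of Pgd and H6pd held under all 17 alternatives, that of G6pdx under all but 1, and that of Tkt ended under 6. Among 17 genes of the tricarboxylic acid cycle 3 were higher and 4 lower. Ogdh, a subunit of the 2-oxoglutarate dehydrogenase complex, had 198.5 and 211.9 CPM against 303.5, 304.8 and 300.8 CPM and fell by 0.56 ± 0.065 on the log2 scale (edgeR adjusted p = 0.000478). Cs (citrate synthase) fell by 0.24, while Sucla2, a subunit of succinate-CoA ligase, rose by 0.38. Of 35 nuclear genes of the respiratory chain 1 was higher and 3 lower. The called ones were Cox7b (log2 fold change 0.26), Ndufv1 (-0.30), Cox4i1 (-0.31) and Atp5c1 (-0.26). Among 12 tested genes of gluconeogenesis and glycogen 1 was higher and 4 lower. They included Pygb, the brain form of glycogen phosphorylase (-0.48), and Pck2, the mitochondrial form of phosphoenolpyruvate carboxykinase (-0.32), on the lower side, and Pygm, the muscle form of glycogen phosphorylase (1.17), on the higher side. Of the genes named from these pathways, the calls of Pcx, Dld, Ogdh and Pygb also held under all 17 alternatives. Those of Ndufv1, Cox4i1 and Cox7b ended with the GC offset. Those of Tigar, Pck2, Pygm, Cs and Atp5c1 ended without control replicate 2 (edgeR adjusted p from 0.0703 for Pygm to 0.119 for Atp5c1), among other settings, and that of Sucla2 ended under 1 setting.

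Markers of several cell types moved with these changes. Of 17 tested macrophage markers 13 were lower, and their summed level was 407.0 and 339.1 CPM in the Treg-ablated libraries against 634.1, 619.8 and 607.2 CPM in the controls. The macrophage growth factor receptor gene Csf1r had 22.3 and 20.5 CPM against 52.5, 50.2 and 44.2 CPM. Of 16 T and NK cell markers 15 were higher, with summed levels of 118.7 and 123.7 CPM against 35.5, 43.1 and 41.2 CPM, and the T cell receptor gene Cd3e had 4.85 and 5.13 CPM against 1.68, 1.65 and 1.95 CPM. In the list of B and plasma cells 7 of 9 markers were higher, at 67.5 and 84.1 CPM against 23.2, 20.2 and 24.2 CPM, and the B cell marker Ms4a1 had 11 and 23 counts against 0 in every control. Of 18 fibroblast markers 11 were lower and 1 higher, at 22140 and 24760 CPM against 28300, 28600 and 24310 CPM. The collagen gene Col1a1 had 471.8 and 464.1 CPM against 717.1, 760.4 and 693.5 CPM. The 14 epithelial and tumour markers summed to 273.9 to 334.7 CPM, mostly Krt18 at 179.6 to 222.4 CPM, with Epcam at 0.63 CPM or less. Red blood cell markers summed to 5.36 and 6.26 CPM in the Treg-ablated libraries against 11.96, 8.81 and 9.96 CPM, with 2 of 5 tested (Hba-a1 and Hbb-bs) lower. Neutrophil markers summed to 12.7 and 10.6 CPM against 9.002, 9.92 and 8.85 CPM, with 1 of 4 tested (Retnlg) higher. These 3 genes are named after their values were seen. Endothelial markers summed to 29.6 and 26.4 CPM against 31.6, 30.1 and 29.1 CPM. The part of these cell types in the changes of the hypoxia and glycolysis genes was not tested.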

How the data were processed

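Per the file headers, the deposited values are whole-number counts of fragments per gene, made by the authors with featureCounts 1.6.2 from a filtered Ensembl 83 annotation of GRCm38. They are not normalized, and the same files give each gene's exon length. Other tools in the submitters' processing notes are Trimmomatic 0.33 and FastQC 0.11.5, then Subread 1.6.2 and DESeq2 1.16.1. No strand setting appears in the header's command. Groups came from the sample titles.

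Genes kept by filterByExpr were scaled by TMM and tested with edgeR 4.0.16 in R 4.3.3, by its quasi-likelihood F test over all 5 libraries, with Benjamini-Hochberg adjustment over all 14580 genes tested and a threshold of 0.05. The SE of a log2 fold change is its size over the root of F. CPM are counts over the TMM-scaled library size, times 1e+06, and means carry the SD of n = 2 Treg-ablated and n = 3 control libraries. A count of 3 corresponds to between 0.150 and 0.226 CPM, counting error only. Libraries within a group differed by more than counting noise (chi-square per degree of freedom 3.97 to 7.33), so none was treated as a duplicate.

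All 30 genes are named. Those called or without overlap between groups are given in every library, along with up to 10 others, and from each further list up to 4 with the smallest p, plus a fixed set, are named. Some genes that this rule names are not reported here. The members and lists were chosen with earlier results of these data known. Alternatives were DESeq2 1.42.0, limma-voom (limma 3.58.1), no scaling beyond library size, RLE factors, filters at 1 count in any library or 1 CPM in 2 libraries, the replicate number as a block, lowess offsets (span 0.3) on GC content or exon length, and leaving out each library. Sums with near-identical copies, found by blastn in GENCODE M21 transcripts, with and without the GC offset, were added after seeing the data. GC content came from the longest GENCODE M21 transcript and was known for 98.95% of genes. The scripts were tested on simulated data. Promoters came from RefSeq (GRCm38.p6).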

Additional observations from a re-analysis of the deposited data

How the results depend on the processing

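The calls of Hk2, Pfkfb4, Bnip3, Mxi1 and Adm kept their direction and their side of the threshold under all 17 alternatives. The other 8 called genes each lost the call under at least 1 of them, and the cause was not tested. Over the 30 genes, the count of higher calls was 10. It was 6 with the replicate block, and between 5 and 10 when single libraries were left out. The count of lower calls was 3. It was 6 with the filter of 1 count in any library, 5 with DESeq2, 6 with the length offset, 1 with the GC offset, and 1 with the GC offset on sums with copies. With the replicate block it was 1, also with the GC offset added, and it ranged from 1 to 4 when single libraries were left out. Among the enzymes, 2 were higher and 1 when summed with copies. Enzymes called lower numbered 2, but 4 with the filter of 1 count, 4 with DESeq2, 5 with the length offset, 0 with the GC offset, 0 on sums with copies with that offset, 0 with the replicate block with or without it, and 0 to 2 when single libraries were left out. The 1 higher call among transporters and regulators (Pdk1) was absent under the replicate block, with and without the GC offset (0 calls), and ranged from 0 to 1 without single libraries. Of the 12 other targets 7 were higher, 4 with the replicate block and 3 to 7 without single libraries, while 1 (P4ha2) was lower with the filter of 1 count and 0 to 1 without single libraries. Control replicate 2, the deepest library, mattered most: without it 812 genes of the whole table were higher and 554 lower, against 1971 and 1787 with it. Leaving out single libraries gave up to 1687 higher and 1538 lower. DESeq2 called 1214 genes higher. The replicate block gave 1296 higher and 1116 lower, and with the GC offset 1113 and 988. The replicate numbers were not taken to pair the samples. The groups share only numbers 1 and 2, and no label ties equal numbers to a shared animal or day. The deviations of equal numbers correlated at -0.226 and -0.0213. The deviations of the 2 Treg-ablated libraries from their mean mirror each other, so these correlations cannot decide whether the samples were paired. The replicate numbers and the block are those of the titles. The deposited files of Treg-ablated replicates 1 and 2 are named with 2 and 3, while those of the controls match their titles, and by the file numbers the correlations were 0.0213 and -0.199. Where a Treg-ablated library is left out, the lone one that remains takes its variance from the controls. Depth limits Car9, Ankrd37 and Pfkfb4 most, with 32 to 159 counts per library.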
